A study of Mus musculus with 6 samples.

Results

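Neurotrophin and GDNF-family signalling was described through 8 genes, taken by name from the count tables of cultured sensory neurons: the receptor genes Ntrk2, Ntrk3, Ngfr, Ret, Gfra1, Gfra2 and Gfra3 and the ligand gene Bdnf. They are 8 of 47643 gene identifiers and 8 of the 15573 genes that passed the low-count filter. Total RNA, depleted of ribosomal RNA, was sequenced from dorsal root ganglion neurons that had been taken from CD-1 mice on embryonic day 13. Lentiviral short hairpins defined the groups, with 3 libraries for a control hairpin (shControl) and 3 for a hairpin against Uhrf1 (shUHRF1). Neurons were uninjured in both groups, per the series' design text, and the labels name no allele, Cre line or transgene. Hairpin expression is the stated difference between the groups. The question was how knockdown of Uhrf1, which encodes a reader of hemimethylated DNA, changes transcription in these neurons.

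Neurotrophins are secreted growth factors that keep developing sensory neurons alive and shape their subtypes. Each binds a Trk receptor tyrosine kinase, and all of them bind the p75 receptor, the product of Ngfr. Ligands of the GDNF family act through the kinase RET, which needs a co-receptor of the GFRα family to hold the ligand. In the ganglion, TrkB and TrkC mark mechanoreceptors and proprioceptors, and RET marks an early mechanoreceptor group and, later, non-peptidergic nociceptors.

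The libraries held 15599776 to 22382813 reads in genes. Uhrf1 itself (ENSMUSG00000001228.14) had 8, 6 and 5 reads in shControl libraries 1, 2 and 3 and 2, 1 and 5 reads in shUHRF1 libraries 1, 2 and 3. It did not pass the filter, and in the fit without a filter its log2 fold change was -1.43 ± 0.73 (SE), with an edgeR adjusted p of 0.245, so the knockdown was not resolved at this depth. Against the label, 13 neuron markers were checked, and all 13 passed the filter. Their summed level was 24082 to 29066 CPM (read counts scaled to a common library size with TMM factors) in shControl and 19824 to 25072 CPM under shUHRF1. Prph, a filament gene of peripheral neurons, had 5223 CPM under shControl and 5428 CPM under shUHRF1. Of the 13, 1 was called, the neuronal tubulin gene Tubb3, which fell from 5378 to 3201 CPM (edgeR adjusted p = 0.0168). Over all tested genes 24.0% were called. With the library number as a block Rbfox3 (191 to 85.9 CPM) and Pou4f1 also passed as lower and Elavl4 as higher, where 31.0% of all tested genes were called. Runx3, a transcription factor gene of TrkC-positive proprioceptors, had 0 CPM in all 3 shControl libraries and at most 0.135 CPM under shUHRF1. The labels do not say whether libraries of a group came from separate cultures, so p-values reflect only how far these libraries differ, and that spread may be technical.

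Of the 8 genes, Ret and Gfra3 rose in shUHRF1 and Bdnf fell, by edgeR's quasi-likelihood test at an adjusted p below 0.05. Ret, the GDNF-family kinase, went from 242 ± 87.4 to 565 ± 105 CPM (SD, n = 3 per group) and Gfra3, the co-receptor for artemin, from 7.73 ± 4.23 to 37.6 ± 27.4 CPM. Bdnf went from 20.3 ± 1.25 to 13.1 ± 2.95 CPM. The 2 higher calls stand beside 11.6% of all tested genes called higher, and the 1 lower call beside 12.4% called lower, or 24.0% called in either direction. Ntrk2 had the largest log2 fold change, 2.60, without passing the test. Ngfr and Gfra1, 2 of the 3 most abundant of the genes in shControl per length, had log2 fold changes of -0.30 and -0.11 and were not called. Over the 8 genes the median log2 fold change was 0.62, against 0.017 over all tested genes. That median lies between the values of Ntrk3 (0.20) and Gfra2 (1.04, at 5 to 24 reads), neither of them called.

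**Figure D1:**
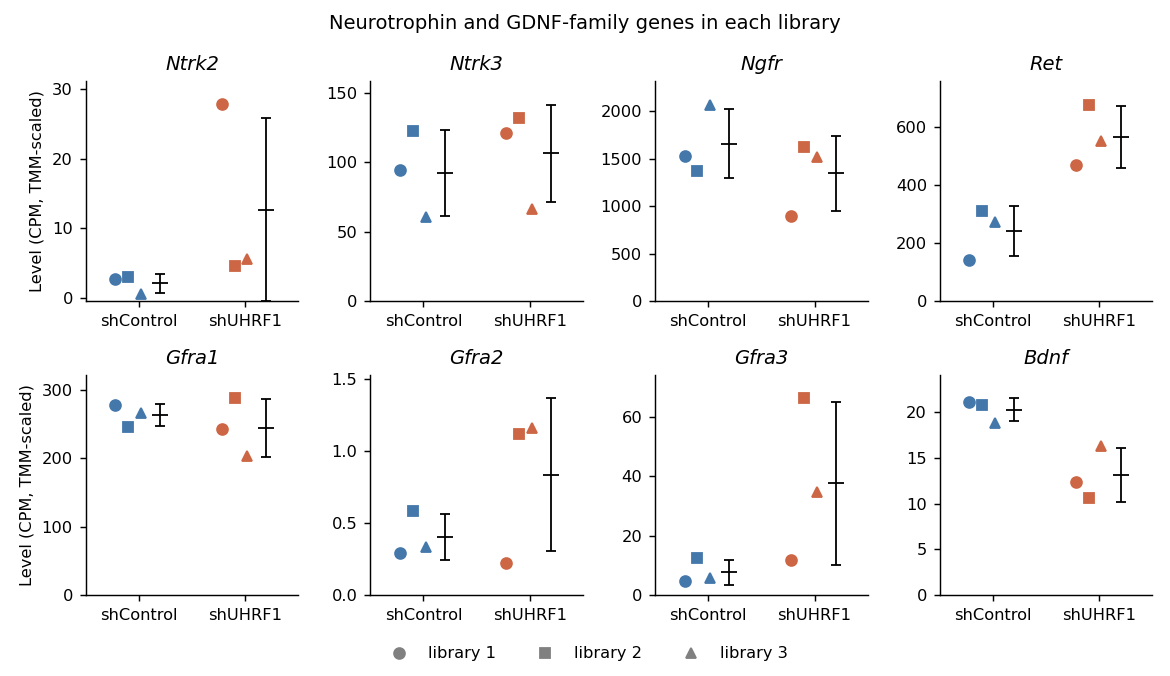
Level of each of the 8 genes in CPM (linear vertical axes, starting at or just below 0) in the 3 shControl libraries (blue) and the 3 shUHRF1 libraries (orange). Symbols give the library number and black bars the mean ± SD. The 3 shUHRF1 points of Ret, from 467 to 676 CPM, lie above the shControl points, those of Bdnf lie below, and Ntrk2 is set apart by shUHRF1 library 1 at 27.8 CPM.

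Bdnf (ENSMUSG00000048482.14, chromosome 2, 109674700 to 109727007, plus strand, GRCm38) encodes brain-derived neurotrophic factor, the ligand of TrkB. Its level was 21.1, 20.8 and 18.8 CPM in shControl libraries 1, 2 and 3. In the shUHRF1 libraries of the same numbers it was 12.4, 10.6 and 16.4 CPM. All 3 shUHRF1 libraries were below all 3 shControl libraries, a separation found for 44.0% of tested genes. The log2 fold change was -0.63 ± 0.18 (SE), with an edgeR adjusted p of 0.0417. Bdnf was lower in each of the 3 pairs of libraries with the same number, at 0.586, 0.508 and 0.869 of the shControl level. The fall stayed between -0.83 and -0.52 on the log2 scale when 1 library was left out, but the call was kept in only 1 of those 6 fits, the one without shUHRF1 replicate 3. With upper-quartile scaling the value was -0.50 (edgeR adjusted p = 0.0833), and on libraries 1 and 3 alone it was -0.48 (edgeR adjusted p = 0.156).

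Bdnf exons overlap those of the antisense gene Gm45346 over 896 bases, 14.4% of the Bdnf exon length, and Gm45346 was not analysed here. Transcription of Bdnf begins at several alternative starts, which gene-level counts cannot separate. GENCODE lists 11 transcripts, and RefSeq's GRCm38.p6 promoter table holds 7 windows of 300 bases, each from 250 bases before a start to 50 after it. UHRF1 recognises hemimethylated CG dinucleotides, so CG counts are given for the windows, without any methylation measurement here. The Bdnf windows held 2 to 13 CG, against a median of 7 over all 32851 windows in the table. The stretches before the starts of the richest and the poorest window are shown to make that range visible, 5′ to 3′ on the plus strand with each CG in capitals. They lie at chr2:109694159-109694408 and chr2:109709133-109709382.
Bdnf, start 5: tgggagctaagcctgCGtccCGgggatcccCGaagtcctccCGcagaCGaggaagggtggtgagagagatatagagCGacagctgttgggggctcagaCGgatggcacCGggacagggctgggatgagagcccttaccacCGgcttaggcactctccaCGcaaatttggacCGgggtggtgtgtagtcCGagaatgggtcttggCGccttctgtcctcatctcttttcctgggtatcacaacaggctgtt
Bdnf, start 6: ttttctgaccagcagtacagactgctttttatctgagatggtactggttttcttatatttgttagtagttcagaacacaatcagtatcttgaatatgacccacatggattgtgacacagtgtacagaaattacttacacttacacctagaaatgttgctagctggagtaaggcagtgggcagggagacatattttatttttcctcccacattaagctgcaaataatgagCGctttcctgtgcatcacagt
The first stretch holds 13 CG and the second 1. As many CG as in the whole window of start 5 were found in 37.9% of all windows, and as many as in that of start 6 in 85.9%. The cyclic AMP response half-site TGACG, searched on both strands, was present in the window of 1 Bdnf start, the third, and in 20.8% of all windows. TTCAGCACC, the left part of the motif of the repressor REST, was in 0 of the 10 windows found and in 0.371% of all windows. GGACAG, its right part, was in the windows of Bdnf start 5 and of Gfra1 and in 22.2% of all windows. The 10 windows belong to 4 of the 8 genes, Bdnf, Ntrk2, Ngfr and Gfra1. Ret, Gfra3, Ntrk3 and Gfra2 had no window and were not searched.

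The other ligands of both families were near or under the detection limit. Of 7 further ligand genes, 1 passed the filter, and 5 stayed under 1 CPM in every library. The gene that passed was Ntf3, which encodes the TrkC ligand neurotrophin 3. It had 92, 84 and 70 reads in shControl and 2, 14 and 21 reads in shUHRF1, or 5.34, 5.44 and 3.35 CPM against 0.0898, 0.824 and 1.02 CPM. The groups did not overlap, the log2 fold change was -2.88 ± 0.62 (SE) with an edgeR adjusted p of 0.0138, and the call was kept in all 6 fits with 1 library left out. Gdnf, the RET ligand gene, did not pass the filter and had 1, 3 and 4 reads in shControl, against 17, 8 and 14 in shUHRF1.

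Ntrk2 (ENSMUSG00000055254.14, chromosome 13, 58806569 to 59133970, plus strand) encodes TrkB, the receptor for BDNF. Its level was 2.79, 3.04 and 0.574 CPM in shControl libraries 1, 2 and 3. In shUHRF1 it was 27.8, 4.65 and 5.57 CPM. Every shUHRF1 library was above every shControl library, and shUHRF1 library 1 was far above the other two. At a log2 fold change of 2.60 ± 0.82 (SE) and an edgeR adjusted p of 0.0534, Ntrk2 was not called. With the library number as a block, the log2 fold change was 2.38 with an edgeR adjusted p of 0.0169. By that rule 4 of the 8 genes were called, beside 31.0% of all tested genes. The estimate depended on shUHRF1 library 1: without it the log2 fold change was 1.28, with an edgeR adjusted p of 0.151. Within pairs of the same number the level in shUHRF1 was 9.99, 1.53 and 9.70 times that in shControl. GENCODE lists 10 transcripts of Ntrk2, and the gene-level counts pool the kinase form with the truncated forms, which glia also make.

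The Ntrk2 promoter is shown because this gene had the largest fold change and a single window in the table. It is CG-rich, with 23 CG in 300 bases, a number reached by 21.5% of all windows. The 250 bases before the start, chr13:58806319-58806568, read 5′ to 3′ on the plus strand with each CG in capitals.
Ntrk2: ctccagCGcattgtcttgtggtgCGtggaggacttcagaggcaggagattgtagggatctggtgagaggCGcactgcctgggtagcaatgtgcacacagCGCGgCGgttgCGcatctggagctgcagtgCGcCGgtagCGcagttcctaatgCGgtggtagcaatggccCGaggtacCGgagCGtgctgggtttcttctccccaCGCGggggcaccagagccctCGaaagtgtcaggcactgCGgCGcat
This stretch holds 19 CG. The window of Ngfr, a gene that was not called, also held 23 CG, and that of Gfra1, likewise not called, held 12. Of the 4 genes with a window, only Bdnf was called.

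Ntrk3 (ENSMUSG00000059146.12, chromosome 7, 78175959 to 78738012, minus strand) encodes TrkC, the receptor for neurotrophin 3. Its level was 94.3, 122 and 60.7 CPM under shControl and 121, 131 and 66.3 CPM under shUHRF1. The groups overlapped, and in both of them library 2 was highest and library 3 lowest. The log2 fold change was 0.20 ± 0.31 (SE), with an edgeR adjusted p of 0.677. The interval of 1 SE spans 0, and the direction turned without shControl replicate 3 (-0.0346) and without shUHRF1 replicate 2 (-0.0062). Every fit with 1 library left out leaves another without its same-numbered partner, and why the direction turned in those 2 was not tested. Within pairs of the same number the Ntrk3 level in shUHRF1 was 1.29, 1.08 and 1.09 times that in shControl, and with the block the edgeR adjusted p was 0.207.

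Ngfr (ENSMUSG00000000120.6, chromosome 11, 95568818 to 95587735, minus strand) encodes p75, which binds all neurotrophins with similar affinity and is also made by Schwann cells. It was the most abundant of the 8 genes in every library. Its level was 1534, 1373 and 2070 CPM under shControl and 898, 1625 and 1520 CPM under shUHRF1. The groups overlapped, with shUHRF1 library 1 lowest. For Ngfr the log2 fold change came to -0.30 ± 0.25 (SE), with an edgeR adjusted p of 0.420.

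Ret (ENSMUSG00000030110.13, chromosome 6, 118151745 to 118197718, minus strand) encodes the kinase shared by all GDNF-family ligands. Its level was 143, 310 and 271 CPM in shControl libraries 1, 2 and 3. In shUHRF1 it was 467, 676 and 551 CPM. The lowest shUHRF1 library was above the highest shControl library, and library 1 was lowest in both groups. For Ret the log2 fold change came to 1.22 ± 0.28 (SE), with an edgeR adjusted p of 0.0170, and with the block these were 1.28 and 0.00232. Within pairs of the same number Ret was 3.26, 2.18 and 2.03 times higher in shUHRF1. With 1 library left out the log2 fold change ranged from 0.94 to 1.43, and the call was lost without shControl replicate 3 (edgeR adjusted p = 0.0502) and without shUHRF1 replicate 3 (edgeR adjusted p = 0.0543).

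**Figure D2:**
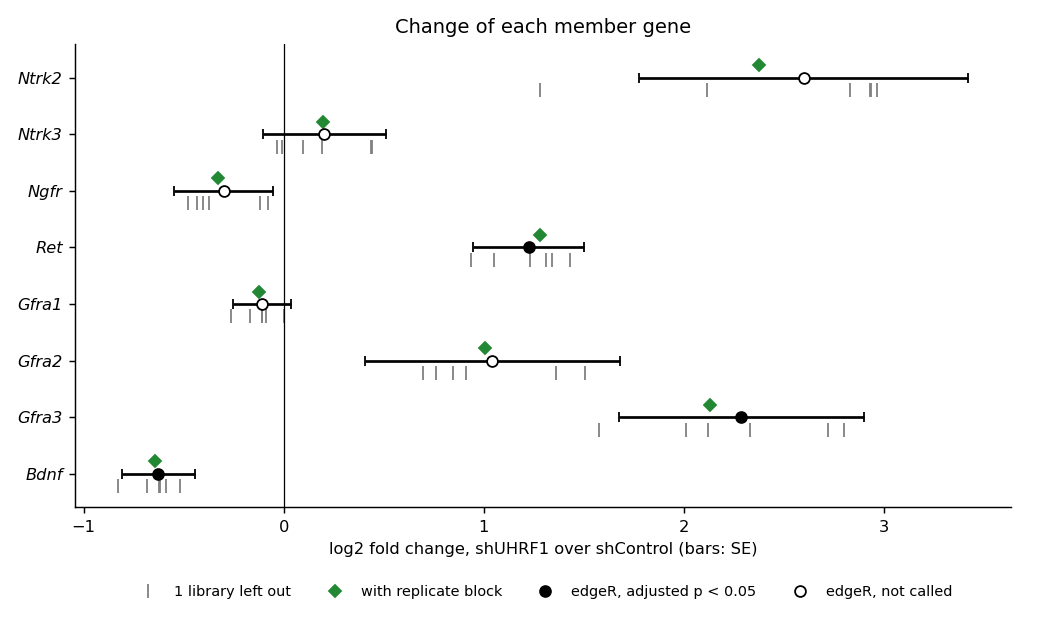
log2 fold change of each gene, shUHRF1 over shControl, with its SE (horizontal bars). Filled circles passed edgeR's adjusted p below 0.05, green diamonds are the fit with the replicate block, and grey ticks are the 6 fits with 1 library left out. Ret, Gfra3 and Ntrk2 keep positive values in all of these fits and Bdnf negative ones, while the ticks of Ntrk3 and Gfra1 reach or cross 0.

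Of the 3 co-receptor genes, Gfra3 alone was called. Gfra1 (ENSMUSG00000025089.15, chromosome 19, 58235604 to 58455909, minus strand) encodes the GDNF co-receptor. Its level was 277, 246 and 266 CPM under shControl and 243, 287 and 203 CPM under shUHRF1. The groups overlapped, and the log2 fold change was -0.11 ± 0.14 (SE), with an edgeR adjusted p of 0.633. It was 0.0196 with upper-quartile scaling and 0.000527 without shUHRF1 replicate 3. Gfra1 exons overlap those of the antisense gene Gm16277 over 416 bases, 7.6% of the Gfra1 exon length, and Gm16277 had at most 2 reads in any library.

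Gfra2 (ENSMUSG00000022103.9, chromosome 14, 70890120 to 70979838, plus strand), the neurturin co-receptor gene, was at the limit of detection. It had 5, 9 and 7 reads in shControl and 5, 19 and 24 reads in shUHRF1. In shUHRF1, library 1 was as low as the shControl libraries, while libraries 2 and 3 were higher. For Gfra2 the log2 fold change came to 1.04 ± 0.64 (SE), with an edgeR adjusted p of 0.275. It reached the filter's level in shControl library 2 and in shUHRF1 libraries 2 and 3, so it passed partly through the group where it was higher.

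Gfra3 (ENSMUSG00000024366.7, chromosome 18, 34689898 to 34720387, minus strand) encodes the artemin co-receptor of peptidergic nociceptors and is also found in Schwann cell precursors. Its level was 4.70, 12.6 and 5.93 CPM under shControl and 11.7, 66.3 and 34.9 CPM under shUHRF1. The ranges overlapped, since shUHRF1 library 1 lay just under shControl library 2. For Gfra3 the log2 fold change came to 2.29 ± 0.61 (SE), with an edgeR adjusted p of 0.0313. Library 2 was highest in both groups, and within pairs of the same number Gfra3 was 2.49, 5.28 and 5.89 times higher in shUHRF1. The fit with the block gave a log2 fold change of 2.13 and an edgeR adjusted p of 0.00193. The value was 1.58 without shUHRF1 replicate 2 (edgeR adjusted p = 0.0679), and the call was also lost when shControl replicate 1 (0.108), shControl replicate 3 (0.112) or replicate 3 of shUHRF1 (0.0751) was left out and with limma-voom (2.08, adjusted p = 0.0706).

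Markers of other cells moved in the same libraries. Over all tested genes 11.6% were called higher and 12.4% lower. Of 14 Schwann cell and satellite glia markers other than Ngfr and Gfra3, 12 were tested, 8 rose and 1, Mbp, fell. Apoe, which satellite glia and macrophages express, had 5.98, 3.82 and 5.21 CPM under shControl and 13.9, 58.1 and 35.9 CPM under shUHRF1, the same order of the shUHRF1 libraries as Gfra3. Sox2 and Foxd3, of glial progenitors and the neural crest, stayed under 1 CPM in every library. The summed level of the 14 markers overlapped between the groups, at 532 to 609 CPM under shControl and 237 to 635 CPM under shUHRF1, with S100b, Mbp and Cadm4 the most abundant. Of 12 fibroblast markers 9 were tested and 8 rose, and their sum was 10.3 to 13.2 CPM under shControl and 73.7 to 170 CPM under shUHRF1. Of 11 macrophage markers 7 were tested and 4 rose, with sums of 6.02 to 12.2 CPM and 16.3 to 40.5 CPM. Markers near 0 in shControl pass the filter only where they are high in shUHRF1, so these counts lean toward rises. The part of these cells in the levels of Gfra3, Ntrk2, Ret and Ngfr was not tested. In bulk RNA, a changed number of cells of a type and a changed amount of RNA per cell cannot be told apart.

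Levels were compared between genes per kilobase of annotated exon, the union over all transcripts, which can exceed any 1 transcript. In shControl the order was Ngfr at 481 CPM per kilobase, Gfra1 at 48.1, Ret at 35.7, Gfra3 at 3.87, Bdnf at 3.26, Ntrk3 at 3.06, Gfra2 at 0.114 and Ntrk2 at 0.111. The library ranges overlapped between Gfra1 and Ret, between Gfra3 and Bdnf, between Bdnf and Ntrk3 and between Gfra2 and Ntrk2. In shUHRF1 the order was Ngfr at 391 CPM per kilobase, Ret at 83.5, Gfra1 at 44.6, Gfra3 at 18.9, Ntrk3 at 3.52, Bdnf at 2.11, Ntrk2 at 0.658 and Gfra2 at 0.236. There the ranges of Ret and Gfra1 no longer overlapped, while those of Ntrk3 and Bdnf and those of Ntrk2 and Gfra2 did.

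Ratios within a library do not depend on how libraries are scaled to each other, and 4 were compared. The log2 ratio of the 3 co-receptor genes together to Ret, in reads per kilobase, was 1.33, 0.16 and 0.37 in shControl and -0.46, -0.22 and -0.57 in shUHRF1. Co-receptor reads thus exceeded Ret reads per length in every shControl library and were below them in every shUHRF1 library, a mean difference of -1.03 on the log2 scale. The log2 ratio of Ntrk2 to Ntrk3 was -4.42, -4.67 and -6.02 in shControl and -1.48, -4.17 and -2.92 in shUHRF1, so TrkC reads stayed in excess throughout. The log2 ratio of Bdnf to its receptor gene Ntrk2 was 4.54, 4.40 and 6.61 in shControl and 0.47, 2.82 and 3.18 in shUHRF1. Each of these 3 ratios separated the groups, with a two-sided exact permutation p of 0.1, the smallest that 3 against 3 libraries allow, and 0.133 adjusted over the 4 ratios. The log2 ratio of Ngfr to Ntrk2 plus Ntrk3 overlapped, with means of 7.28 and 6.58 (exact permutation p = 0.5).

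**Figure D3:**
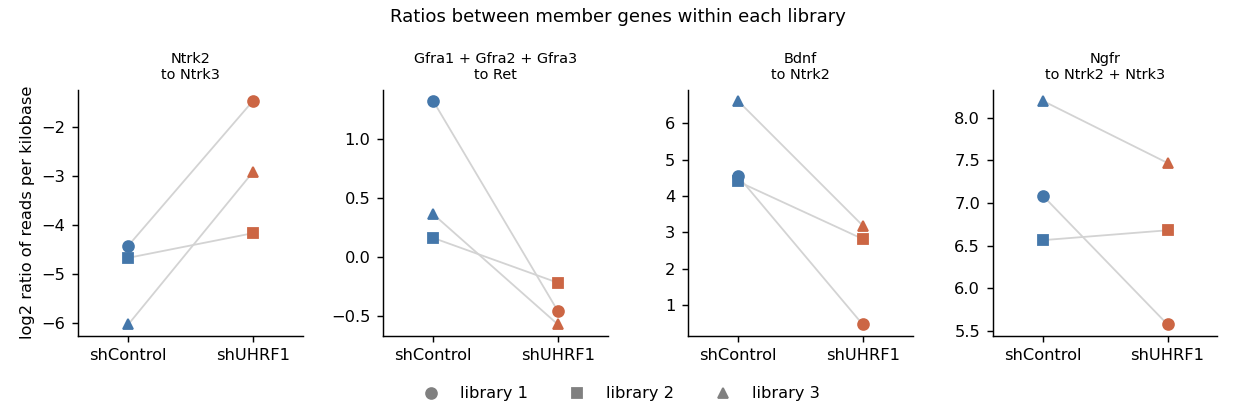
log2 ratios of reads per kilobase between genes in each library, with grey lines joining libraries of the same number and separate vertical axes that do not start at 0. The co-receptor to Ret ratio falls below 0 in all 3 shUHRF1 libraries. Ntrk2 to Ntrk3 rises and Bdnf to Ntrk2 falls in each pair, while Ngfr to Ntrk2 plus Ntrk3 moves in both directions.

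Around these 8 genes, 8 lists held 116 further genes of the pathway, of which 106 were tested, 7 rose and 25 fell. Their median log2 fold change was -0.20, against 0.017 over all tested genes, and 50 of the 106 did not overlap between the groups, where 44.0% of all tested genes did not. The 32 calls are 30.2% of the 106, beside 24.0% over all tested genes. With the block 10 rose and 32 fell, beside 31.0% of all tested genes called, 2380 higher and 2440 lower. With upper-quartile scaling, which moved the median of all genes to 0.142, 13 rose and 20 fell. Over all genes that scaling gave 2512 higher and 1378 lower, where TMM scaling gave 1807 and 1928. The count of called genes, 32 in all, became 18 when shControl replicate 1 was dropped, 15 when shControl replicate 3 was, and 21 when shUHRF1 replicate 3 was. Calls over all genes fell in the same fits, from 3735 to 2018, 1768 and 2171.

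Of 14 other receptor and co-receptor genes, 1 rose and 3 fell, a called share of 28.6%, beside 24.0% over all tested genes. Sorl1, a sorting receptor of the family that carries neurotrophins and their receptors, fell from 113 ± 21 to 30.1 ± 11.3 CPM (SD, n = 3; log2 fold change -1.91), with an edgeR adjusted p of 0.00266. Gfra4, the persephin co-receptor gene, fell from 18.1 ± 2.52 to 9.58 ± 2.23 CPM (SD, n = 3), opposite in direction to Gfra3 (log2 fold change -0.92, edgeR adjusted p = 0.0181). Nradd, a death-domain relative of p75, rose from 1.43 to 3.63 CPM, and Lrig2 fell from 253 to 183 CPM. With 1 library left out, the Gfra4 call was kept in 4 of the 6 fits and the Nradd call in 5. The Lrig2 call was kept in 1 of the 6 fits with 1 library left out, the one without shUHRF1 replicate 2, and was lost with upper-quartile factors (edgeR adjusted p = 0.103) and with the filter at 2 CPM (edgeR adjusted p = 0.0594). Ncam1, an alternative GDNF receptor, had 555 CPM under shControl and 598 CPM under shUHRF1 and was not called.

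Of 33 genes for adaptors and effectors that couple the receptors to kinases, 1 rose, 7 fell and 25 were not called. The called share, 24.2%, is that of all tested genes, 24.0%. Shc1 and Shc3 encode adaptors that dock on activated Trk and RET. Shc1 fell from 88.2 ± 5.12 to 28.6 ± 4.64 CPM (SD, n = 3; log2 fold change -1.63), with an edgeR adjusted p of 0.000653. Shc3, a neuronal form, fell from 9.70 to 1.75 CPM. Their relative Shc2 had 416 CPM under shControl and 490 CPM under shUHRF1, without a call. Akt1 fell from 252 to 151 CPM and Rap1b from 131 to 61.6 CPM, while Kidins220, a scaffold phosphorylated downstream of Trk receptors, had 648 and 749 CPM and was not called. Of 10 genes of p75 adaptors and interactors, 0 rose by edgeR's test and 3 fell (30% called, beside 24.0% of all tested genes). These were Arhgdia, whose product binds p75 (768 to 382 CPM), Ndn (778 to 459 CPM) and Prdm4 (73.8 to 52.5 CPM). An unadjusted edgeR p below 0.05 was found for 5 of the 10. The share of all tested genes at that unadjusted level was not counted, and it is at least the 24.0% called. Prdm4 lost its call when shControl replicate 1, shControl replicate 3 or replicate 3 of shUHRF1 was left out (edgeR adjusted p from 0.0505 to 0.0612) and on libraries 1 and 3 alone (0.0551). Maged1, the most abundant of the uncalled ones, had 936 and 781 CPM. Bex3, which encodes a death-domain interactor of p75, had 156 and 114 CPM and was called with the block alone (edgeR adjusted p = 0.0200 against 0.137).

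In the ERK cascade, which relays Trk and RET signals, 6 of 15 genes fell and 2 rose, beside 12.4% of all tested genes lower and 11.6% higher. Hras fell from 175 ± 20.6 to 56.8 ± 10.4 CPM (SD, n = 3; log2 fold change -1.63), with an edgeR adjusted p of 0.000989, and Nras from 360 to 169 CPM. Braf rose from 75.2 to 142 CPM and Rps6ka1, a ribosomal S6 kinase gene, from 7.28 to 20.9 CPM. The terminal kinase gene Mapk3 had a log2 fold change of -0.20 and was not called. Among 11 inhibitors of the cascade, Rasa1 and Nf1, which encode Ras GTPase activators, had log2 fold changes of 0.68 and 0.43 and rose, while Spred1 and Spred2 fell by 0.50 and 0.89 on that scale. Spred3 (69.0 and 56.3 CPM) and Spry4 (15.2 and 9.54 CPM) were not called. The called share of the 11, 36.4%, stands beside 24.0% of all tested genes. Each of the 4 calls was lost in at least 2 of the 6 fits with 1 library left out, and 0 of the 11 were called by edgeR without shControl replicate 1 or without shControl replicate 3, where 4 had an unadjusted p below 0.05. The share of all tested genes below that unadjusted p was not counted in these fits.

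Of the genes that neurotrophins induce or act through, 3 of 10 tested were lower and 1 was higher, against the same 12.4% and 11.6% of all genes. Etv5, an ETS factor gene downstream of neurotrophins and GDNF, fell from 71.9 ± 5.29 to 22.2 ± 6.59 CPM (SD, n = 3; log2 fold change -1.69), with an edgeR adjusted p of 0.00191. Vgf, which encodes a neurotrophin-inducible peptide precursor, fell from 246 to 86.6 CPM, and its call was kept in 3 of the 6 fits with 1 library left out. Crtc1, a CREB coactivator gene, fell from 36.4 to 21.4 CPM, and Scg2, a granin gene, rose from 138 to 239 CPM. Etv1, which proprioceptors need, had 67.4 and 57.6 CPM and was not called. Of 14 genes for ligand processing and receptor transport, 12 were tested and 0 were called by edgeR or by DESeq2. With the block 3 were called, beside 31.0% of all tested genes. An unadjusted edgeR p below 0.05 was found for 3 without the block, and the share of all tested genes at that level was not counted. Among the most abundant of the 12, the GTPase genes Rac1 (109 and 95.0 CPM) and Rab5a (91.8 and 72.6 CPM) had log2 fold changes of -0.20 and -0.34. Rab5a was called with the block (edgeR adjusted p = 0.0466).

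**Figure D4:**
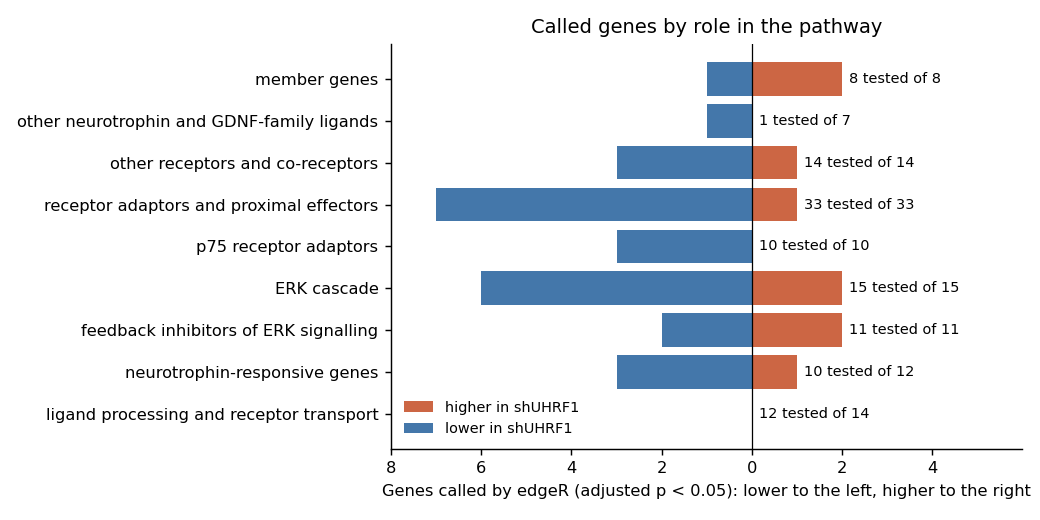
Number of genes called by edgeR in each list, lower in shUHRF1 to the left (blue) and higher to the right (orange), with the number tested of the number listed. The bars to the left are longer for adaptors (7 of 33) and the ERK cascade (6 of 15), and ligand processing has no bar.

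The genes whose pattern was most like that of a member were ranked by Pearson's r of log2 CPM over the 6 libraries, among 10291 genes at a mean of 5 CPM or more. With 6 points that share their libraries and 2 groups, high values are found for every member, and they are given as a description only. Pearson's r does not depend on the size of a change, so a gene named here can change much less than its member. Ret was followed most closely by Creb5 (0.995), Mfsd4a (0.992) and Sncaip (0.991). Ntrk2 was followed by Tmtc3 (0.994), Wdr78 (0.988) and Mfsd1 (0.988), and Ntrk3 by Zbtb49 (0.988), Pkd1 (0.975) and Tbce (0.968). For Ngfr the closest were Inf2 (0.992), Tmem132e (0.990) and the kinase gene Camk2a (0.986). The co-receptor genes had different neighbours: Gfra1 had Tmem131 (0.989), Scaf8 (0.969) and Dync1h1 (0.955), Gfra2 had B3galnt1 (0.978), Smim7 (0.977) and Kcnk10 (0.970), and Gfra3 had Fcho2 (0.991), Pola1 (0.991) and Nek1 (0.990). Bdnf was followed by Sucla2 (0.997), Srp14 (0.994) and Cdc7 (0.985).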

How the data were processed

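Raw read counts per gene were taken as the authors deposited them, 1 table per library. The submitters' processing notes name FastQC, STAR, HTSeq and DESeq2, with mm10 as the genome. Tool versions, gene annotation and strandedness of counting are each not given in the sources used here, so reads of overlapping genes on opposite strands cannot be told apart. Summary lines were left out of library sizes. They held 8.43% to 17.2% of entries as reads outside genes and 30.5% to 37.3% as not uniquely aligned.

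Identifiers were matched without version to GENCODE M21 on GRCm38 (47224 of 47643 matched). Differential expression used edgeR 4.0.16 in R 4.3.3, with filterByExpr, TMM factors, a two-sided quasi-likelihood F test over all 15573 tested genes and Benjamini-Hochberg adjustment. SE came from the F statistic. The fit was tested on simulated data. Ratios used 0.5 reads as pseudocount. Likeness used log2(CPM + 0.05). RefSeq promoter windows matched 4 of the 8 genes, with 10 windows.

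Members, lists and tests were chosen with earlier results of these data known. The named pathway genes are up to 4 called members of each list with the smallest p and up to 2 most abundant uncalled ones, and some genes the rule names are not reported here. Similar genes are the 3 with the highest r for each member. The ligands below the filter and the markers other than S100b, Mbp and Cadm4 were picked after their values were seen. Same-numbered libraries deviated together from their group means (r = 0.325, 0.401 and 0.400), so the number was used as a block in an alternative fit. The pairing is inferred from the data. Alternatives also included DESeq2 1.42.0, limma-voom (limma 3.58.1), other scaling factors and filters, removal of mitochondrial and small RNA genes, libraries 1 and 3 alone, and each library left out.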

Additional observations from a re-analysis of the deposited data

How the results depend on the processing

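Of the 8 genes, 3 were called with all libraries, 0 to 2 with 1 library left out (0 without shControl replicate 3, where 4 had an unadjusted edgeR p below 0.05) and 0 at an adjusted p below 0.01. The cause of these changes beyond the smaller number of libraries was not tested. For the fit without shControl replicate 3, the share of all tested genes below that unadjusted p was not counted. Ntrk2 passed with DESeq2 (log2 fold change 2.57), upper-quartile factors (2.71), no low-count filter (2.57) and the replicate block (2.38), and ranged from 1.28 to 2.97 with 1 library left out, passing without shUHRF1 replicate 2. Gfra3 lost its call with limma-voom (2.08), and Bdnf lost it with upper-quartile factors (-0.50) and on libraries 1 and 3 (-0.48). Gfra1 turned to 0.0196 with upper-quartile factors. With 1 library left out the ranges were 0.94 to 1.43 for Ret, 1.58 to 2.80 for Gfra3, -0.83 to -0.52 for Bdnf, -0.0346 to 0.44 for Ntrk3, -0.27 to 0.000527 for Gfra1 and -0.0308 to 0.0801 for Creb1. Called pathway genes numbered 15 to 36 in these fits, against 32. Apart from Ntrk2, the replicate block changed no call among the 8 genes. The 4 ratios kept their direction under each alternative run, and the smallest p a paired exact permutation test of 3 pairs allows is 0.25. Gfra2, with 5 to 24 reads, and Uhrf1, with 1 to 8, are limited by depth.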

Other observations

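Transcription factor genes tied to the receptors' neuron classes differed in whether they were detected. Runx1, which nociceptors use to switch toward RET, had 2.32, 2.01 and 1.72 CPM under shControl and 35.2, 12.7 and 15.9 CPM under shUHRF1 (log2 fold change 3.40 ± 0.41, SE, edgeR adjusted p = 0.00177). Shox2, a factor of TrkB-positive mechanoreceptors, had 4.07, 4.47 and 5.40 CPM under shControl and 17.3, 6.59 and 9.40 CPM under shUHRF1 (log2 fold change 1.26 ± 0.35, SE, edgeR adjusted p = 0.0352). For both genes shUHRF1 library 1 was the highest, as it was for Ntrk2, and shUHRF1 library 2 the lowest, as it was for Ntrk2. Of 11 mechanoreceptor and proprioceptor markers 9 were tested and 2 rose, Shox2 and Spp1, or 22.2% called, beside 24.0% of all tested genes. The Spp1 groups overlapped, and with the replicate block Spp1 was not called (edgeR adjusted p = 0.0711 against 0.0481). Spp1 had 2.11, 17.7 and 5.72 CPM in shUHRF1 libraries 1, 2 and 3, an order unlike that of Ntrk2. Tac1, a nociceptor marker, had 279, 60.6 and 112 CPM in these libraries, in the order of Ntrk2. Of 10 nociceptor markers 8 were tested and 2 rose, Runx1 and Tac1, or 25% called, beside the same 24.0%. With the block 2 other nociceptor markers passed as lower, where 31.0% of all tested genes were called. Scn10a went from 1066 to 488 CPM (edgeR adjusted p = 0.0320 with the block against 0.0739) and Prdm12 from 245 to 147 CPM (0.0189 against 0.0503). Ntrk3 reads were present at 60.7 to 131 CPM in libraries in which Runx3 had at most 0.135 CPM.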
